A study of Mus musculus with 3 samples.

Results

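The genes described here build the machinery that stores neurotransmitter in synaptic vesicles and releases it. They were 47 genes taken by symbol from a list of the release machinery, and all 47 were found among the 32532 genes listed in each library. The level of a gene is given in CPM, its counts scaled to a fixed total of counts assigned to genes, and levels of different genes are compared per kilobase of annotated exon (CPM per kb). The RNA came from the cortex-amygdala transition zone, the tissue where ventral cortex meets the amygdala, of 3 adult untreated control mice of the transgenic line Lypd1-EGFP/Rpl10a (OI82). In this line regulatory DNA of Lypd1 drives an EGFP-tagged ribosomal protein L10a, so the captured cells are those in which the transgene is active, and tagged polysomes were pulled down with antibodies to EGFP, a method called translating ribosome affinity purification (TRAP). All animals carried the transgene and belonged to 1 group, with 3 immunopurified libraries called replicates 1, 2 and 3. Nothing in the labels ties each library to a single mouse, so p-values measure only the spread between libraries, which may be partly technical. RNA of the unpurified tissue was not analysed here, and the values give abundance after capture, not enrichment. A value with ± is the mean and SD of 3 libraries (n = 3), and values listed singly are in the order of the replicates.

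A synaptic vesicle fuses with the plasma membrane when SNARE proteins on both membranes zip into a tight bundle. Synaptotagmins sense the calcium that enters with an action potential, complexins hold and assist the SNARE bundle, and Munc13, RIM and large scaffold proteins prepare vesicles at the active zone, the release site opposite the postsynaptic cell. NSF and SNAP proteins then take the used SNARE bundle apart, and dynamin, amphiphysin and synaptojanin recover the vesicle membrane. Most of these proteins come as families of isoforms made from separate genes, and neuron types are known to differ in which isoform they use.

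The libraries held 18526251, 24690301 and 8668527 assigned counts in replicates 1, 2 and 3, and 3 counts, the limit that a count of 0 allows, equal 0.162, 0.122 and 0.346 CPM. This floor covers counting error only. Reads in no counted feature took 31.4%, 25.6% and 45.3% of all entries, and the nuclear transcript Malat1 took 3.45%, 1.44% and 8.25% of assigned counts, both highest in replicate 3. Lypd1, whose regulatory DNA marks the line, measured 33.0, 85.4 and 38.7 CPM per kb, and Rpl10a, the gene of the tagged protein, 50, 76.5 and 46.7 CPM per kb. Glial and vascular markers were present in the captured RNA, and their levels are given with the differences between libraries.

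Isoforms within a family are related proteins, and the coding sequences of their messages were compared for identical stretches. Untranslated ends and read length were not part of this comparison. Over the 44 pairs of isoforms compared here, the longest identical stretch shared by the coding sequences of a pair ran from 11 to 32 bases, with a median of 17.0 bases, and 0 pairs shared a run of 50 bases or more. The most similar 90-base stretches of 3 pairs, from the longest coding sequences in the GENCODE M21 annotation of GRCm38, are shown because these pairs carry comparisons described further on. Capitals mark the bases that differ between the isoforms of a pair. Vamp2 lies at chr11:69088490-69092384 on the plus strand and Vamp1 at chr6:125215551-125245964 on the plus strand. The stretches cover coding bases 97 to 186 of Vamp2 and 103 to 192 of Vamp1 and differ at 8 of 90 positions.
Vamp2: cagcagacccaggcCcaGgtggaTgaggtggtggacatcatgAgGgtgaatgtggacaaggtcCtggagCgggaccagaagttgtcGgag
Vamp1: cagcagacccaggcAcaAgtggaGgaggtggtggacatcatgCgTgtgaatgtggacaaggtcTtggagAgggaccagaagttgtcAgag
Cplx2 lies at chr13:54371349-54383917 on the plus strand and Cplx1 at chr5:108518554-108550024 on the minus strand. Their stretches are the first 90 coding bases, which differ at 11 positions.
Cplx2: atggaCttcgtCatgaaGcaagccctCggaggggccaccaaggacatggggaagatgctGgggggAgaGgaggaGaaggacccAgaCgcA
Cplx1: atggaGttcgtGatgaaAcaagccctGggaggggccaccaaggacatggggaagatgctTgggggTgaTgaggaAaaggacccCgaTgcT
Rab3a lies at chr8:70754679-70758677 on the plus strand and Rab3c at chr13:110054187-110280996 on the minus strand. Coding bases 31 to 120 of Rab3a and 55 to 144 of Rab3c differ at 12 of 90 positions.
Rab3a: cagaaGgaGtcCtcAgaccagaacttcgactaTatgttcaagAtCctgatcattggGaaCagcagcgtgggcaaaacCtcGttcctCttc
Rab3c: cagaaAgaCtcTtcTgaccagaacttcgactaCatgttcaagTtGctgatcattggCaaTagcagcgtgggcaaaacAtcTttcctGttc
Over the whole aligned coding sequence, 70.6% of bases were the same in Vamp1 and Vamp2, 79.6% in Cplx1 and Cplx2 and 76.3% in Rab3a and Rab3c.

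All 47 genes reached 1 CPM in every library, which is called detected here, against 39.3% of all listed genes. The lowest count of any of them in a library was 50, for Syt2 in replicate 3. Their median level was 28.0 ± 2.74 CPM per kb, and the median of the 12105 detected genes with a known exon length was 5.8 ± 0.319 CPM per kb. In each library 21 of the 47 genes (44.7%) lay in the upper 10% of detected genes by CPM per kb, against 6.95% of all detected genes with a length. Together the 47 genes took 2.51%, 3.03% and 2.01% of assigned counts in replicates 1, 2 and 3, and Snap25 alone made up 30.3%, 43.3% and 31.5% of that sum.

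**Figure D1:**
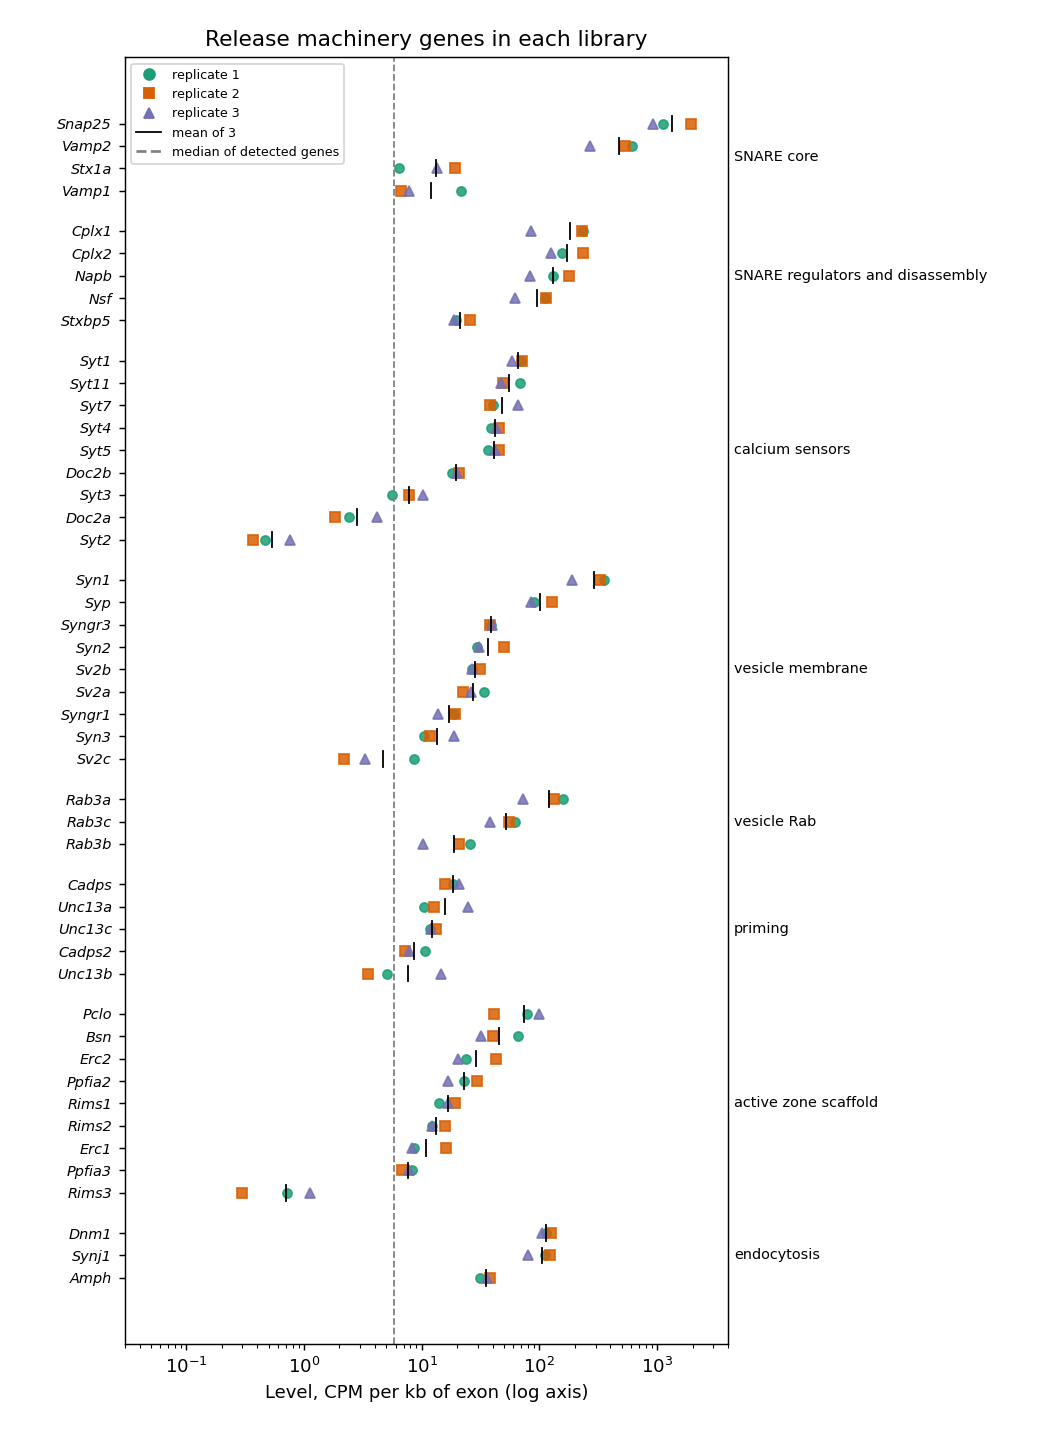
Level of each of the 47 genes in each library in CPM per kb of exon (log axis), grouped by role, with the mean of the 3 libraries as a black tick and the median of all detected genes (5.8 CPM per kb) as a dashed line. Snap25 lies farthest right, and Syt2 and Rims3 lie near or under 1 CPM per kb.

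The SNARE core of the captured RNA was led by the neuronal plasma membrane SNARE Snap25 and the vesicle SNARE Vamp2. Snap25 (chr2:136713453-136782428, plus strand) measured 1120, 1933 and 930.1 CPM per kb in replicates 1, 2 and 3, with replicate 2 the highest. Vamp2, or synaptobrevin 2, measured 606, 537 and 271 CPM per kb, with replicate 3 the lowest. The other plasma membrane SNARE of the group, Stx1a, which encodes syntaxin 1A, was far lower at 6.36, 19.3 and 13.6 CPM per kb.

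The 2 VAMP genes of the group, both vesicle SNAREs, were set far apart. Vamp1, the synaptobrevin known for its role at fast and motor synapses, measured 21.6, 6.64 and 7.74 CPM per kb, so that replicate 1 stood above the others. The libraries of Vamp1 and Vamp2 did not overlap, and Vamp2 was 42.6 times as high, a difference of 5.41 ± 0.80 on the log2(CPM per kb + 0.1) scale. Vamp1 made up 3.44%, 1.22% and 2.77% of the summed CPM per kb of the pair. The size of the difference depends in part on the exon lengths of 10167 bases for Vamp1 and 3809 bases for Vamp2. By CPM alone Vamp1 minus Vamp2 was −4.01 ± 0.81, and the share of Vamp1 averaged 6.32%.

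Within each library every isoform pair was compared by this log2 difference, over 57 pairs in all, 44 among the genes of the group and 13 of a gene against a paralog outside it. With 3 libraries an exact permutation test that flips signs (two-sided) has 0.25 as its smallest p, so no pair can pass a threshold of 0.05. Pairs with the same order in 3 of 3 libraries had p = 0.25 (exact permutation test) and an adjusted p of 0.303 over the 57 pairs (Benjamini-Hochberg). The size of a difference, its SD and the libraries that show it therefore carry each comparison.

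Snap25 was far more abundant than the 3 paralogs it was compared with. Snap25 exceeded Snap23, the broadly expressed paralog, by 8.97 ± 1.29 on the log2 scale of CPM per kb, Snap29 by 7.29 ± 0.05 and Snap47 by 4.04 ± 0.62, with no overlap of libraries.

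Genes that regulate or take apart the SNARE bundle were also abundant, and the complexin family had no fixed order. Cplx1 measured 237, 229 and 85.3 CPM per kb and Cplx2 155, 234 and 126 CPM per kb. Both encode complexins, the small SNARE-binding clamps. Cplx1 was the higher in replicate 1, both were alike in replicate 2 with a log2 difference of −0.03, and Cplx2 was the higher in replicate 3. The mean difference was 0.00 ± 0.59 on the log2 scale. It depends on the length correction, since by CPM alone Cplx2 was the higher on average, and Cplx1 minus Cplx2 was −1.17 ± 0.59 on the log2 scale.

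Napb, which encodes the brain form of SNAP, the adaptor that lets NSF act on SNARE bundles, measured 130, 180 and 83.3 CPM per kb. It exceeded its paralogs Napa and Napg by 2.59 ± 0.47 and 2.71 ± 0.41 on the log2 scale, with no overlap of libraries. Nsf, the ATPase itself, measured 112, 113 and 61.7 CPM per kb. Both were lowest in replicate 3. Stxbp5, or tomosyn, an inhibitor of SNARE assembly, measured 19.4, 25.6 and 18.7 CPM per kb and was lower than its paralog Stxbp5l by 0.97 ± 0.13 on the log2 scale in 3 of 3 libraries. This difference rests on the exon lengths of 16513 and 8521 bases, since by CPM alone Stxbp5 minus Stxbp5l was −0.02 ± 0.13.

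Among the 7 synaptotagmins of the group, Syt1 and Syt11 had the highest means and Syt2 the lowest. Syt1, the main fast calcium sensor of forebrain synapses, measured 70.2, 70.5 and 57.9 CPM per kb. Syt2, the fast sensor known from hindbrain and some inhibitory synapses, measured 0.466, 0.366 and 0.755 CPM per kb, equal to 66, 69 and 50 counts. Syt1 exceeded Syt2 108-fold, by 6.76 ± 0.60 on the log2 scale, and the libraries did not overlap. Syt3, a sensor with high calcium affinity, came next at 5.57, 7.81 and 10.2 CPM per kb, and it lay above Syt2 and below the other 5 in every library.

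The 5 synaptotagmins Syt1, Syt11, Syt7, Syt4 and Syt5 lay close to each other per kb of exon, but the lead of Syt1 depends on the length used. Syt11, which together with Syt4 forms a subfamily not known to trigger fast release, measured 68.0, 49.05 and 47.3 CPM per kb. Syt7, a slow sensor with high calcium affinity, measured 40.0, 37.7 and 65.1 CPM per kb and was the only one of the 5 with its highest value in replicate 3. Syt4 averaged 42.1 ± 3.42 and Syt5 41.2 ± 4.75 CPM per kb. Syt1 was above Syt4 and Syt5 in 3 of 3 libraries without overlap, by 0.65 ± 0.21 and 0.68 ± 0.25 on the log2 scale. Syt1 was also above Syt11 in 3 of 3 libraries, by 0.29 ± 0.24 with overlapping ranges, and Syt11 was above Syt4 and Syt5 in 3 of 3 without overlap. The order changed between libraries for Syt7 with each of the other 4 and for Syt4 with Syt5, whose difference was 0.03 ± 0.05. Per kb of the longest annotated transcript Syt1 exceeded Syt7 in 3 of 3 libraries, by 1.13 ± 0.59, and Syt5 minus Syt11 was 0.00 ± 0.44. On that scale Syt1 exceeded Syt4 by 1.44 ± 0.21, Syt5 by 1.03 ± 0.25 and Syt11 by 1.02 ± 0.24. By CPM alone Syt1 exceeded Syt4 by 1.75 ± 0.21, Syt5 by 2.49 ± 0.25, Syt11 by 0.97 ± 0.24 and Syt7 by 0.67 ± 0.59.

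The other calcium sensors in the group were the Doc2 proteins, soluble C2-domain proteins linked to spontaneous and asynchronous release. Doc2b measured 18.0, 20.8 and 19.8 CPM per kb and Doc2a 2.41, 1.82 and 4.16 CPM per kb. The libraries did not overlap, and Doc2b was 7.16 times as high. Doc2b carried 87.6 ± 4.66% of the summed CPM per kb of the pair.

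Of the synapsin, synaptophysin, SV2 and synaptogyrin genes, which cover the vesicle surface and membrane apart from the SNAREs and sensors, Syn1 had the highest level. Syn1, which encodes the phosphoprotein synapsin I that tethers vesicles into clusters, measured 353, 326 and 189 CPM per kb. Syn2 measured 29.7, 49.5 and 30.8 CPM per kb, and Syn3 10.4, 11.7 and 18.7 CPM per kb. The order Syn1, Syn2, Syn3 held in 3 of 3 libraries without overlap. Syn1 exceeded Syn2 by 2.96 ± 0.52 and Syn2 exceeded Syn3 by 1.43 ± 0.68 on the log2 scale. By CPM alone the first difference was 1.88 ± 0.52 and the second 0.64 ± 0.69, with Syn3 above Syn2 in replicate 3 (229 against 216 CPM). The share of Syn1 in the summed CPM per kb of the synapsins was 89.8%, 84.2% and 79.2%, and the share of Syn3 was 2.64%, 3.02% and 7.84%, highest in replicate 3.

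Syp, the vesicle membrane protein synaptophysin, measured 90.2, 127 and 84.6 CPM per kb, and exceeded its paralogs Synpr and Sypl by 3.93 ± 0.38 and 4.71 ± 0.94 on the log2 scale. In the SV2 family of vesicle glycoproteins, Sv2a and Sv2b did not separate per kb of exon. Sv2a measured 33.6, 22.55 and 26.05 CPM per kb, and Sv2b 26.9, 31.2 and 26.8 CPM per kb. Their difference of −0.06 ± 0.39 (Sv2a minus Sv2b) was smaller than its spread, with Sv2a the higher in replicate 1 only. Sv2b was the higher in 3 of 3 libraries per kb of the longest transcript (Sv2a minus Sv2b −0.57 ± 0.39) and by CPM alone (−0.92 ± 0.39). Sv2c, known from the basal ganglia, was lower than both without overlap, at 8.60, 2.18 and 3.32 CPM per kb. Its share of the family was 12.4% in replicate 1, 3.90% in replicate 2 and 5.91% in replicate 3.

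The synaptogyrins, a further family of vesicle membrane proteins, were led by Syngr3. Syngr3 measured 38.9, 37.8 and 39.5 CPM per kb, the narrowest range of all 47 genes with a highest value 1.04 times the lowest. Syngr1 measured 18.7, 19.15 and 13.8 CPM per kb and was the lower in 3 of 3 libraries, by 1.18 ± 0.29 on the log2 scale. By CPM alone the 2 did not separate, with 82.75 ± 14.3 CPM for Syngr1 and 80.3 ± 1.76 CPM for Syngr3.

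Rab3 proteins are small GTPases that mark vesicles for docking. Rab3a measured 158, 132 and 73.1 CPM per kb, Rab3c 62.2, 55.6 and 38.2 CPM per kb, and Rab3b 25.6, 20.8 and 10.15 CPM per kb. All 3 were highest in replicate 1 and lowest in replicate 3, and the order Rab3a, Rab3c, Rab3b held in each library without overlap. Rab3a exceeded Rab3c by 1.17 ± 0.21 and Rab3c exceeded Rab3b by 1.53 ± 0.33 on the log2 scale. The order of Rab3a and Rab3c rests on the length correction, because the annotated exons cover 2226 bases for Rab3a and 12049 bases for Rab3c. By CPM alone Rab3a minus Rab3c was −1.26 ± 0.21.

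Priming genes had the lowest median of the 8 roles in each library, at 10.7, 12.7 and 14.6 CPM per kb. The median of the 4 SNARE core genes was 314, 278 and 143 CPM per kb, but no gene of this role had that level. Snap25 and Vamp2 were above it in each library, and Stx1a and Vamp1 were far below. In CPM per kb, Stx1a (6.36, 19.3 and 13.6) and Vamp1 (21.6, 6.64 and 7.74) lay nearer to the priming medians. Unc13a, which encodes the priming factor Munc13-1, measured 10.4, 12.7 and 24.5 CPM per kb, Unc13b (Munc13-2) 5.04, 3.50 and 14.6, and Unc13c (Munc13-3, known from the cerebellum) 11.8, 13.1 and 11.97. Unc13a and Unc13b were each highest in replicate 3, while the highest value of Unc13c was 1.11 times its lowest. Unc13a exceeded Unc13b in 3 of 3 libraries, by 1.20 ± 0.56 on the log2 scale, with overlapping ranges, but by CPM alone the difference was 0.37 ± 0.57 and not of 1 sign. Unc13a and Unc13c did not separate (0.27 ± 0.66), since Unc13c was slightly the higher in replicates 1 and 2 and the lower in replicate 3. Without replicate 3 the difference was −0.11. Unc13b was below Unc13c in replicates 1 and 2 and above it in replicate 3.

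Cadps and Cadps2 encode CAPS proteins, which prime vesicles and dense-core granules. Cadps measured 18.6, 15.8 and 20.6 CPM per kb and Cadps2 10.7, 7.21 and 7.73 CPM per kb. Cadps was the higher in 3 of 3 libraries without overlap, by 1.11 ± 0.30 on the log2 scale.

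The active zone scaffold genes were led by the giant proteins Piccolo and Bassoon. Pclo measured 78.8, 41.1 and 99.8 CPM per kb and Bsn 65.2, 39.9 and 31.9 CPM per kb. Pclo was the higher in 3 of 3 libraries with overlapping ranges. Bsn minus Pclo was −0.27, −0.04 and −1.64 on the log2 scale in replicates 1, 2 and 3, with a mean of −0.65 ± 0.87, and without replicate 3 the mean was −0.16.

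RIM proteins link vesicles to calcium channels. Rims1 measured 14, 19.3 and 16.8 CPM per kb and Rims2 12.15, 15.7 and 12.1 CPM per kb. Rims1 was the higher in 3 of 3 libraries by 0.32 ± 0.14 on the log2 scale with overlapping ranges, but per kb of the longest annotated transcript the order turned to −0.59 ± 0.14. Rims3, a short RIM isoform, was near the bottom of the group at 0.711, 0.300 and 1.11 CPM per kb, equal to 105, 59 and 77 counts.

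The ERC proteins, which bind RIM and Bassoon, and the liprin-alpha proteins, which organize the active zone, each had a lead isoform. Erc2 measured 23.6, 42.5 and 20.4 CPM per kb and Erc1 8.51, 16.1 and 8.33 CPM per kb. Both were highest in replicate 2, and their log2 difference of 1.38 ± 0.09 varied little. It depends in part on the exon lengths of 16271 bases for Erc1 and 9728 bases for Erc2. By CPM alone Erc1 minus Erc2 was −0.65 ± 0.09, with overlapping ranges. Ppfia2 measured 23.0, 29.2 and 16.7 CPM per kb and Ppfia3 8.24, 6.81 and 7.80 CPM per kb, a log2 difference of 1.55 ± 0.50 without overlap.

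The 3 endocytosis genes of the group had a median of 111, 124 and 80.2 CPM per kb in replicates 1, 2 and 3. Dnm1, which encodes the neuronal dynamin that cuts vesicles from the membrane, measured 113, 126 and 105 CPM per kb. It exceeded Dnm2 by 3.77 ± 0.64 and Dnm3 by 3.13 ± 0.27 on the log2 scale without overlap. The excess over Dnm3, which has 24452 annotated exon bases, was 1.63 ± 0.27 per kb of the longest transcript and 0.92 ± 0.27 by CPM alone. Synj1, the lipid phosphatase that helps shed the clathrin coat, measured 111, 124 and 80.2 CPM per kb and exceeded Synj2 by 2.88 ± 0.26. Amph, or amphiphysin, measured 31.2, 37.9 and 35.7 CPM per kb and did not separate from Bin1 (0.46 ± 0.53, higher in 2 of 3 libraries).

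**Figure D2:**
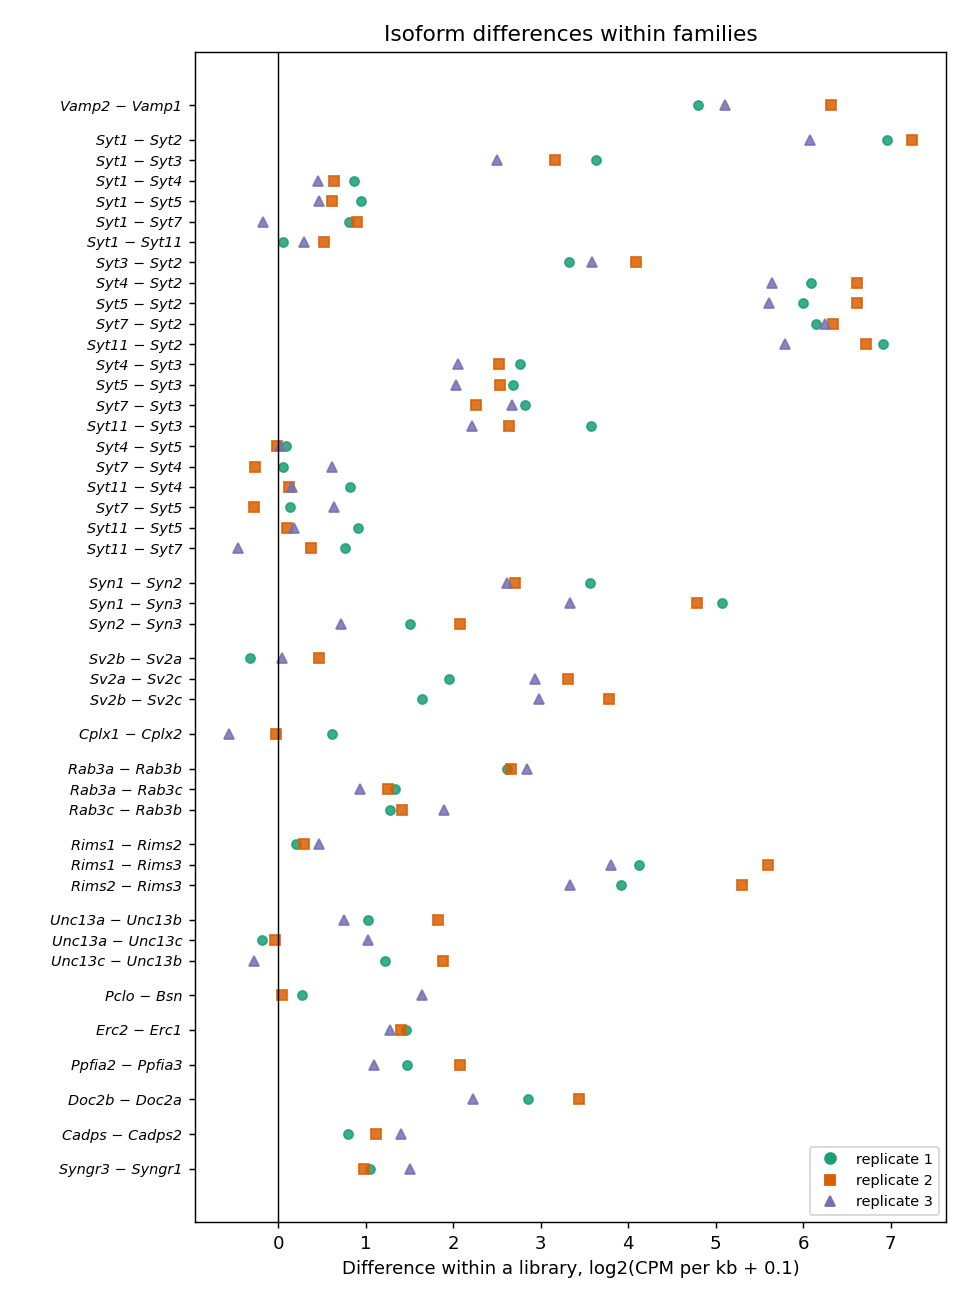
Difference of the 44 isoform pairs within each library on the log2(CPM per kb + 0.1) scale, with the isoform of higher mean named first and 1 symbol per library. Points on both sides of 0 mark pairs whose order changed between libraries, such as Cplx1 and Cplx2, which measured 0.61, −0.03 and −0.56.

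Over the 44 isoform pairs, 35 (79.5%) had the same order in 3 of 3 libraries and 31 (70.5%) had libraries that did not overlap. Over all pairs of detected genes with a length the same shares were 77.2% and 67.9%, so the isoform pairs were ordered about as often as gene pairs at large. Of the 9 pairs whose order changed, 5 were among Syt1, Syt4, Syt5, Syt7 and Syt11. The others were Cplx1 with Cplx2, Sv2a with Sv2b, and Unc13c with each of Unc13a and Unc13b. Of the 13 pairs with a paralog outside the group, 12 kept their order and 11 did not overlap.

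**Figure D3:**
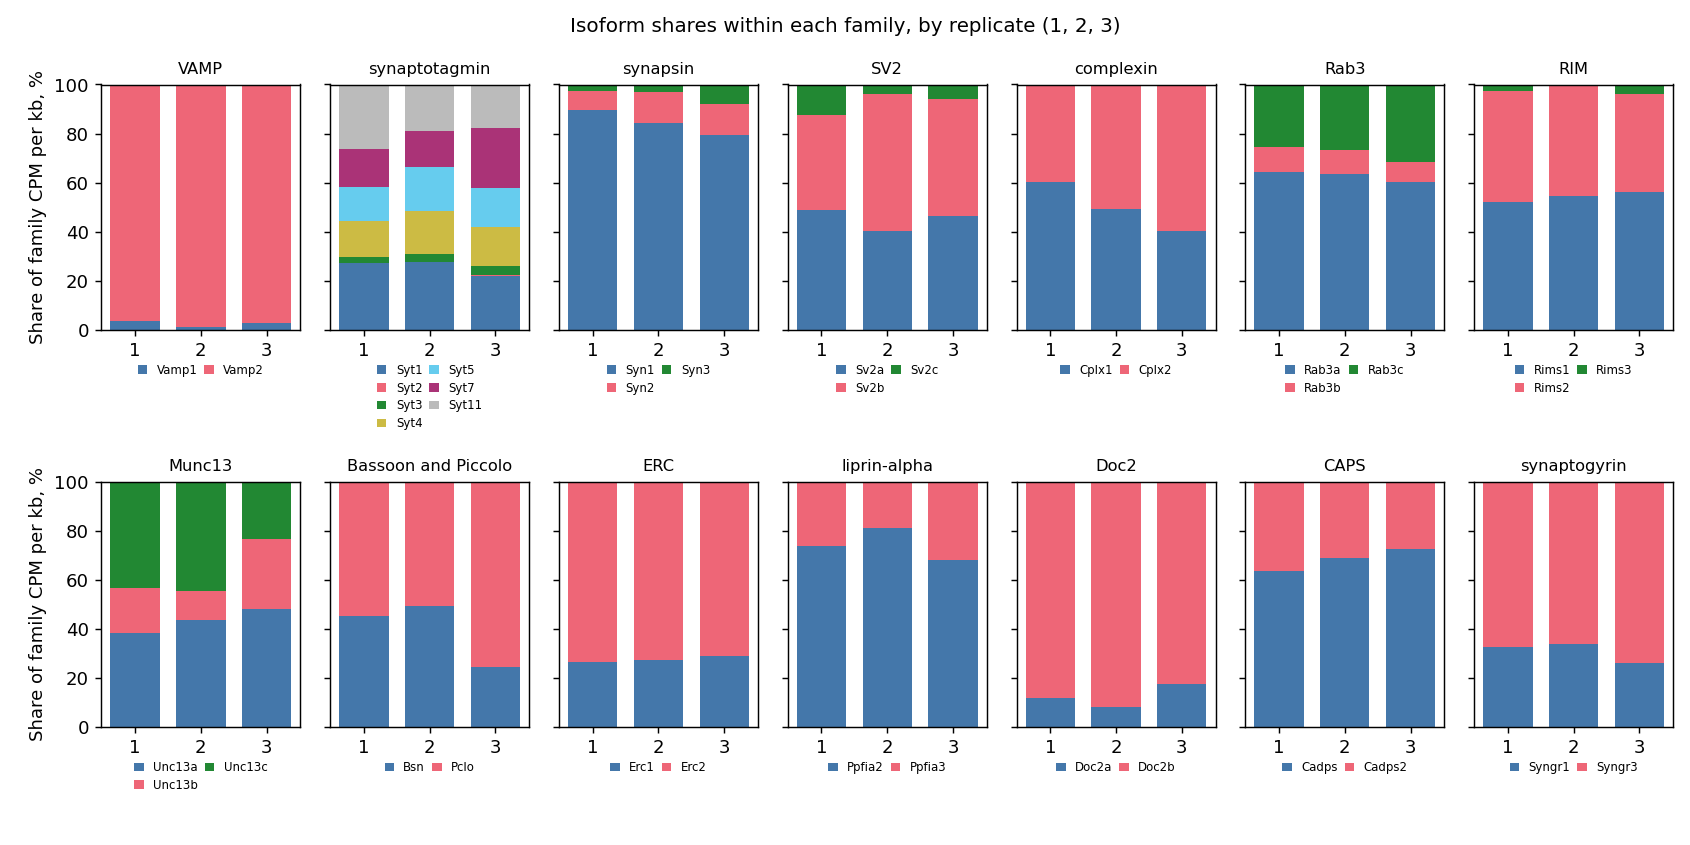
Share of each isoform in the summed CPM per kb of its family (percent, bars from 0 to 100), by replicate, for the 14 families with at least 2 genes in the group. Only the genes of the group count in a family. Vamp2 took 96.6% to 98.8% of the sum with Vamp1, whereas Cplx1 took 60.4%, 49.4% and 40.4% in replicates 1, 2 and 3.

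The variation of each gene between libraries was tested with edgeR, by the goodness of fit of a model with no difference between libraries, over the 15336 genes whose mean reached 1 CPM. The spread that the model allows was estimated from these same libraries, as a trend over genes of like abundance. A call therefore means more variation than such genes show, and a gene that is not called can still differ between libraries. Of the 47 genes 0 were called at an adjusted p below 0.05, where 0.222% of all tested genes were called, and 0 were called by DESeq2's dispersion outliers. At an unadjusted p below 0.05 there were 4, against 7.09% of all tested genes. These 4 were Unc13b (adjusted p = 0.381, edgeR), Vamp1 (adjusted p = 0.476, edgeR), Sv2c (adjusted p = 0.569, edgeR) and Cplx1 (adjusted p = 0.666, edgeR). On counts simulated for this comparison over 15336 genes, an 8-fold rise in 1 library was recovered for 44.4% of the genes given one and an 8-fold drop for 18%. A 64-fold rise was recovered for 70.8% and a 64-fold drop for 48.4%. Most 8-fold changes were thus missed, and no range among the 47 genes exceeded 4.17-fold. The absence of calls therefore does not show that these genes were alike between libraries.

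The highest library was at most 4.17 times the lowest for any of the 47 genes, and 1.75 times at the median, against 1.95 at the median of detected genes. In 17 genes (36.2%) the ratio was above 2, against 47.7% of detected genes. Unc13b had the widest range, with 115, 79.5 and 332 CPM in replicates 1, 2 and 3. Sv2c followed with 83.4, 21.1 and 32.2 CPM, then Rims3 with 5.67, 2.39 and 8.88 CPM and Vamp1 with 220, 67.5 and 78.7 CPM. Stx1a measured 16.95, 51.6 and 36.2 CPM and Cplx1 518, 501 and 187 CPM.

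Counted by the library with the highest CPM, 13 genes peaked in replicate 1, 23 (48.9%) in replicate 2 and 11 in replicate 3, where the shares over all detected genes were 32.6%, 31.1% and 36.3%. The lowest value fell in replicate 1 for 11 genes, in replicate 2 for 13 and in replicate 3 for 23 (48.9%), against 32.3%, 36.3% and 31.4% of detected genes. Genes highest in replicate 2 included Snap25, Stx1a, Cplx2, Napb, Syn2, Erc1 and Erc2. Genes highest in replicate 1 included Vamp1, Vamp2, Syn1, Cplx1, Sv2a, Sv2c, Bsn and the 3 Rab3 genes. Genes highest in replicate 3 included Unc13a, Unc13b, Pclo, Syn3, Syt2, Syt3, Syt7, Doc2a and Rims3.

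Markers of other cell classes moved between the libraries as well, and in bulk RNA a smaller number of cells of a type cannot be told apart from less RNA per cell. The summed CPM of 8 glutamatergic markers was 2676, 4525 and 3077 in replicates 1, 2 and 3, led by Camk2a, Slc17a7 and Nrn1. Camk2a alone gave 2182, 3677 and 2408 CPM, so the sum is mostly this gene. Of the 8 markers 1, 6 and 1 were highest in replicates 1, 2 and 3, and Slc17a6 (127, 66.5 and 76.8 CPM) was the one highest in replicate 1. All 8 were detected. The sum of 12 GABAergic markers was 1168, 628 and 886, with Gad2 and Gad1 among the highest, and 10 of 12 were detected, while Pvalb, the marker of fast-spiking interneurons, was at 0.108, 0.648 and 0.00 CPM. The 6 cholinergic markers, of which 0 were detected in every library, summed to 94.1, 5.31 and 3.92 CPM, and 2 of them, Chat (28.55, 0.6075 and 1.615 CPM, adjusted p = 0.0268, edgeR) and Lhx8 (34.9, 2.96 and 0.346 CPM, adjusted p = 0.00455, edgeR), were called as varying. Of the 8 glutamatergic and 11 GABAergic markers tested 0 were called by edgeR, with 2 and 0 at an unadjusted p below 0.05. Replicate 1, where Vamp1 and Sv2c were highest, also held the highest GABAergic and cholinergic sums.

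Glial and vascular sums were highest in replicate 1 for 10 astrocyte markers (2339, 1427 and 1482 CPM), 10 oligodendrocyte markers (447, 249.5 and 249.2 CPM) and 8 mural cell and fibroblast markers (175, 65.98 and 71.4 CPM). Microglial sums were 47.9, 26.2 and 42.1 CPM over 10 markers and endothelial sums 62.3, 67.9 and 31.0 CPM over 8 markers. The precursors of oligodendrocytes gave 197, 140 and 255 CPM over 6 markers. Detected were 10 of 10 astrocyte, 9 of 10 oligodendrocyte, 6 of 6 precursor, 5 of 10 microglial, 6 of 8 endothelial and 7 of 8 mural and fibroblast markers, and no marker of these lists was at 0 in all libraries. In the same order 10, 9, 6, 6, 8 and 8 markers were tested by edgeR, and 0 were called as varying. At an unadjusted p below 0.05 there were 1, 1, 0, 1, 0 and 3. The part of these cell classes in the differences of release genes between libraries was not tested.

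The summed level of nuclear RNA also moved between the libraries, though 0 of the 4 genes listed were called as varying by edgeR. At an unadjusted p below 0.05 there was 1 of the 4. The 4 long non-coding RNAs Malat1, Meg3, Snhg11 and Neat1 summed to 62460, 30980 and 139400 CPM, highest in replicate 3, where Unc13b, Unc13a and Pclo were also highest. Neat1 adds little to this sum and went another way, at 41.45, 10.17 and 37.95 CPM, highest in replicate 1. Over the 47 genes the rank correlation of exon length with the log2 ratio of replicate 3 to replicate 2 was 0.22 (Spearman's rho, across genes, which share these libraries), and over detected genes it was 0.14. Of the 16 genes with the shortest exons 4 were higher in replicate 3 than in replicate 2, and of the 15 with the longest exons 8 were. Against replicate 1 the rank correlation was 0.08 (0.04 over detected genes), and 8 of the 16 shortest and 5 of the 15 longest were higher in replicate 3. Whether nuclear RNA or length had a part in the results was not tested.

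**Figure D4:**
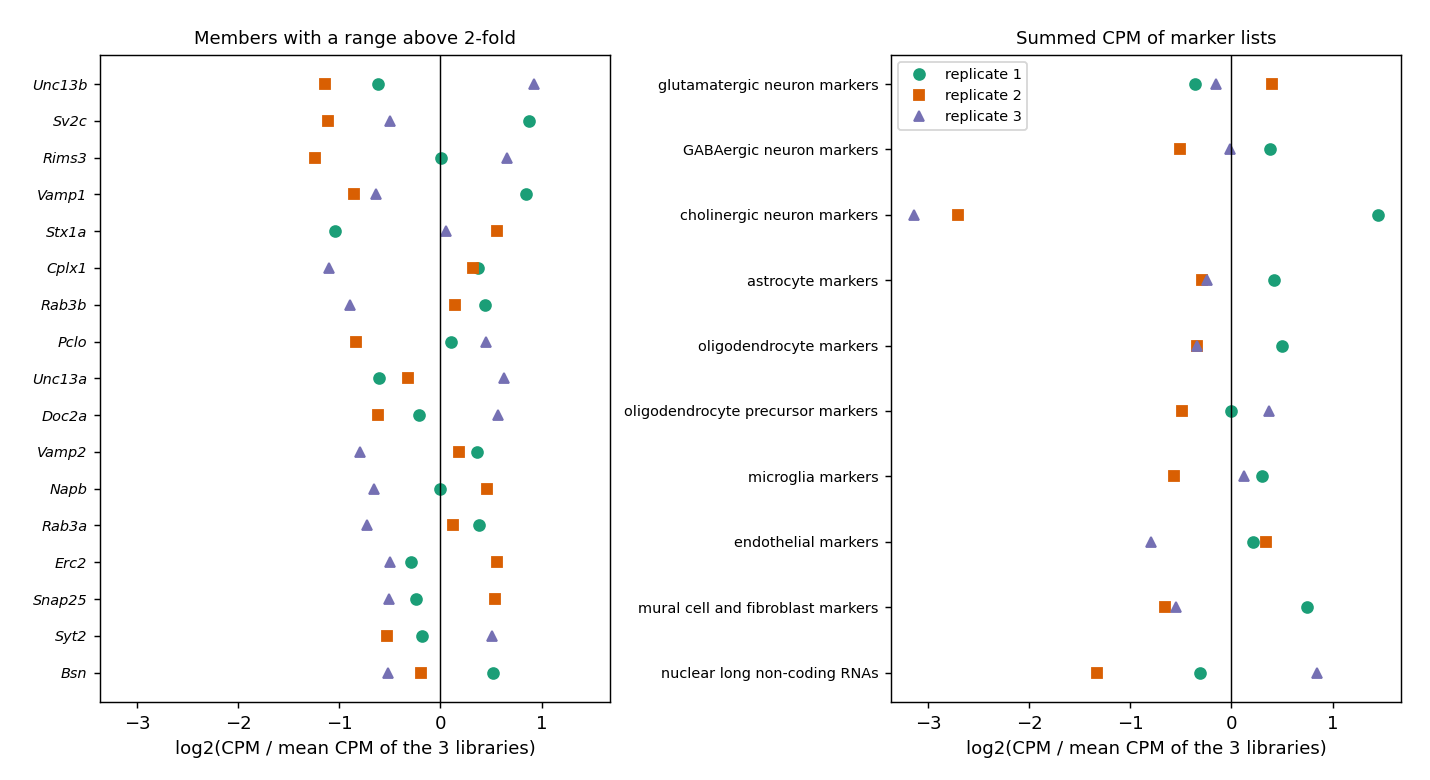
Left, the 17 genes whose highest library was more than 2 times the lowest, as log2 of CPM over the mean CPM of the 3 libraries; right, the summed CPM of marker lists on the same scale, with 1 symbol per library. Vamp1 and Sv2c were highest in replicate 1 with the GABAergic, cholinergic and astrocyte sums. Unc13b was highest in replicate 3 with the sum of the nuclear RNAs.

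Other genes of the release pathway, from lists chosen by function, were mostly detected at lower levels than the 47. Of 35 further fusion and priming genes in the files 29 were detected and 0 of 30 tested were called as varying by edgeR (2 at an unadjusted p below 0.05), with a list median of 9.80 ± 2.87 CPM per kb. Among the highest were the Rab3 effector Rph3a at 365 ± 123 CPM and Stxbp5l at 353 ± 31.5 CPM. Cplx3 and Rims4 were under 1 CPM in at least 1 library, at 0.214 ± 0.133 and 0.720 ± 0.939 CPM, and Cplx4 had no count.

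Of 17 further synaptotagmin-type genes 12 were detected, and the median of the list was 2.92 ± 0.938 CPM per kb. Syt16, Syt17 and Syt13 led with 81.1 ± 13.1, 72.1 ± 40.0 and 70.6 ± 10.6 CPM. Of 19 further vesicle membrane genes 14 were detected, led by the vesicle chaperone Dnajc5 at 307 ± 76.1 CPM, the vesicular glutamate transporter Slc17a7 at 224 ± 45.5 CPM and the secretory carrier gene Scamp1 at 197 ± 14.4 CPM. All 27 further endocytosis genes were detected, around a median of 16.7 ± 1.5 CPM per kb, led by the uncoating ATPase Hspa8 at 650 ± 125 CPM, the clathrin adaptor Snap91 at 362 ± 73.0 CPM and the endophilin gene Sh3gl2 at 358 ± 94.0 CPM. Of the 12, 16 and 27 genes tested in these 3 lists 0 were called as varying by edgeR, with 1, 0 and 0 at an unadjusted p below 0.05. The shares over all tested genes were again 0.222% and 7.09%.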

How the data were processed

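RNA from polysomes captured in 3 libraries of 1 group was sequenced. The deposited files hold whole-number read counts per gene, not normalized. Per the submitters' processing notes, the authors used STAR 2.0.0e, mm10 and HTSeq. The gene annotation they counted on, the use of strand and the kit are not given in the sources used here, so overlapping and antisense genes cannot be told apart. Entries aligned to more than 1 place, 32.7%, 24.3% and 16.5% of all entries in replicates 1, 2 and 3, stayed out of gene counts, as did the 4 other summary lines.

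CPM were computed from the deposited counts over all assigned counts and divided by exon length, from GENCODE M21 on GRCm38 (mm10 is another name of this assembly). A length was available for 73.3% of listed genes, which is below 80%, but for 94.8% of detected genes and all 47 genes described, so levels per kb are compared among detected genes only. Isoform pairs were compared by log2(CPM per kb + 0.1), which understates differences of low genes, with an exact permutation test that flips signs (two-sided) and Benjamini-Hochberg adjustment over 57 pairs. The test of variation between libraries used edgeR 4.0.16 under R 4.3.3 (TMM scaling, intercept-only model, trended dispersion, goodness of fit on 2 degrees of freedom, Benjamini-Hochberg over 15336 genes, threshold 0.05), and with DESeq2 1.42.0 as an alternative. The edgeR step was tested on simulated data. The remaining steps ran in Python 3.11.15 (numpy 2.4.6, pandas 2.3.3, SciPy 1.17.1, matplotlib 3.10.9).

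The 47 genes and the other lists were chosen with earlier results of these data known. Of 240 list genes 239 were matched by symbol, and Stxbp3 was not. The text names all 47 genes, the compared paralogs, Lypd1 and Rpl10a, and of each other list the 3 genes with the highest mean CPM and those called as varying. Some genes that this rule takes are not reported here. Pvalb, Neat1, Cplx3, Cplx4 and Rims4 were named after their values were seen, and the coding stretches shown were chosen after the files were seen. Protein sequences were not used here. The alternatives were other detection thresholds, length corrections, pseudocounts, scalings, filters and dispersions, and leaving out each replicate.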

Additional observations from a re-analysis of the deposited data

How the results depend on the processing

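No paired analysis was possible because the study has only 1 group. All 47 genes were detected at 0.5 CPM and without each replicate, and 45 at 5 CPM. The median level of the 47 genes moved to 39.3 CPM per kb of the longest annotated transcript, where the median of all detected genes was 7.85 ± 0.384, and lay between 26.5 and 29.0 without single replicates. Isoform pairs ordered alike numbered 35 of 44, 38 by CPM alone or by the longest transcript, 35 with a pseudocount of 1, and 37 to 39 with 2 libraries. Pairs without overlap numbered 31, 29 with TMM or DESeq2 scaling, 35 by CPM alone or by the longest transcript, and 33 to 36 with 2 libraries. By CPM without length correction the mean log2 difference turned for Syt7 minus Syt11 (0.30), Cplx1 minus Cplx2 (−1.17), Rab3a minus Rab3c (−1.26), Rims1 minus Rims2 (−0.17), Unc13b minus Unc13c (0.42) and Syngr1 minus Syngr3 (0.03). By the longest transcript it turned for Syt4 minus Syt5 (−0.41), Syt5 minus Syt7 (0.10) and Rims1 minus Rims2 (−0.59). Leaving out 1 replicate at a time gave a range of both signs for Syt4 minus Syt7 (−0.34 to 0.10) and Syt5 minus Syt7 (−0.39 to 0.07), Syt7 minus Syt11 (−0.57 to 0.04), Sv2a minus Sv2b (−0.25 to 0.14), Cplx1 minus Cplx2 (−0.30 to 0.29) and Unc13a minus Unc13c (−0.11 to 0.49). The order turned without replicate 3 for the first pair, the second and the last, without replicate 1 for Syt7 minus Syt11 and Cplx1 minus Cplx2, and without replicate 2 for Sv2a minus Sv2b. These changes follow from the lengths used or the fewer libraries. Of the 47 genes 0 were called as varying under any of the settings run. Among all genes edgeR called 34, against 783 with a common dispersion, 21 dispersion outliers by DESeq2, and 4 to 24 without single replicates. With TMM scaling 12, 25 and 10 of the 47 genes were highest in replicates 1, 2 and 3, and replicate 2 then held the highest value of 36.1% of detected genes. Syt2, Rims3 and Doc2a had the lowest counts of the 47 genes, so counting error weighs most on them.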

Other observations

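The vacuolar proton pump acidifies vesicles and so powers their filling with transmitter, and the 16 of its genes listed here were all detected. Its 16 listed genes had a median of 43.2 ± 11.1 CPM per kb, and 0 of 16 were called as varying between libraries by edgeR, also 0 at an unadjusted p below 0.05. Over all tested genes these shares were 0.222% and 7.09%. Atp6v1g2, a brain form of the G subunit, led with 1471, 1245 and 788 CPM in replicates 1, 2 and 3. Atp6v1d measured 513, 570 and 267 CPM, and the catalytic subunit gene Atp6v1a 281, 414 and 222 CPM. Of the 16 genes 5, 10 and 1 were highest in replicates 1, 2 and 3, against 32.6%, 31.1% and 36.3% of detected genes.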
